A study of Mus musculus with 47 samples.

Results

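The genes described here encode the proteasome: its core and cap subunits, its activators and its assembly factors. They were taken by name from a table of 22632 mouse genes, as the symbols Psma to Psmg followed by a number, without the immunoproteasome subunits Psmb8, Psmb9 and Psmb10. Of 51 matching rows, 3 were left out by symbol and 2 more, Psma8 and Psmb11, because their mean was under 1 RPKM (reads per gene, scaled to gene length and library depth). The 46 rows that stayed hold 7 alpha ring and 7 beta ring subunits of the core, 6 ATPases and 11 other subunits of the cap, 5 genes for activators and an inhibitor, and 7 assembly factors. The other 3 rows are Psmc3ip, a recombination protein caught by its name that is no proteasome subunit, Psme2b-ps, a retrocopy of the activator gene Psme2, and a second row with the symbol Psmd14.

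Messenger RNA was sequenced in 47 libraries of 12 groups. SC and SI are classes of clones of secondary reprogramming cells, grown from secondary mouse embryonic fibroblasts in which doxycycline starts reprogramming. The labels do not spell out SC or SI, and name neither the factors nor the promoter that drives them. There were 4 clones of each class, sampled after 14 days of doxycycline (d14), 21 days (d21), 21 days followed by 1 day (d22) or 2 days (d23) without it, and 27 days (d27). The SC clones were also sampled as iPS cells, after 21 days with doxycycline and 6 without. The remaining group was feeder cells, mouse embryonic fibroblasts never given doxycycline, in 3 libraries. Days follow the sample characteristics, since a general protocol text describes d22 and d23 as continuous treatment. Each clone is 1 line followed over time, so the p-values speak to the spread among these clones alone. In the comparison with feeders they also draw on the spread among the 3 feeder libraries, which are not named as clones.

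The proteasome degrades proteins tagged with ubiquitin. Its barrel-shaped core is built of outer alpha rings, which gate the entrance, and inner beta rings, which hold the catalytic sites. The regulatory cap binds the ubiquitin chain, removes it and unfolds the substrate with a ring of ATPases. Alternative activators replace the cap on some core particles, and dedicated chaperones guide the order in which rings and cap are put together. Cultured embryonic stem cells are known for high proteasome activity, and in human ones the cap subunit PSMD11 has been tied to it.

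Upstream sequences were looked up for the 43 subunits, activators and assembly factors, of which 36 matched the RefSeq promoter table of build GRCm38.p6. The 250 bases before the start site are shown for 5 genes that the values below turn on: Psmg1 and Psmg4, which varied most among the assembly factors, Psmb6 and Psmd12, which spread widely among SC clones, and Psmd8, the core or cap member that fell in SC iPS cells against feeders. They lie at chr16:95990961-95991210 (minus strand), chr13:34162714-34162963 (plus strand), chr11:70525107-70525356 (plus strand), chr11:107479278-107479527 (plus strand) and chr7:29180674-29180923 (minus strand). Each is written 5′ to 3′ on the gene's strand, and capitals mark matches to the motifs described next.
Psmg1: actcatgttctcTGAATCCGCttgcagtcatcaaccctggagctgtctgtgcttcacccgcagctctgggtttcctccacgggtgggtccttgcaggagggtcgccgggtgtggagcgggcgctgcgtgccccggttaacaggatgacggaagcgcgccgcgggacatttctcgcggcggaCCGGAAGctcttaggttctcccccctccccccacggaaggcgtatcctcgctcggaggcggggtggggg
Psmg4: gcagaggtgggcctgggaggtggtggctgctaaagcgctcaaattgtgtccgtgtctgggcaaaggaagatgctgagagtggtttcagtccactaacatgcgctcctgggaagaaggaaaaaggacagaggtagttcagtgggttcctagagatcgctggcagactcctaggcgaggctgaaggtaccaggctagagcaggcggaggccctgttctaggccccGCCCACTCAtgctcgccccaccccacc
Psmb6: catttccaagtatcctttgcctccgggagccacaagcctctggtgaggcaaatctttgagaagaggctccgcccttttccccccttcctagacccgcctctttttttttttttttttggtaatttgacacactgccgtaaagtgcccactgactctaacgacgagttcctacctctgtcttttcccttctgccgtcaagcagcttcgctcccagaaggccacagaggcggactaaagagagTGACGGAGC
Psmd12: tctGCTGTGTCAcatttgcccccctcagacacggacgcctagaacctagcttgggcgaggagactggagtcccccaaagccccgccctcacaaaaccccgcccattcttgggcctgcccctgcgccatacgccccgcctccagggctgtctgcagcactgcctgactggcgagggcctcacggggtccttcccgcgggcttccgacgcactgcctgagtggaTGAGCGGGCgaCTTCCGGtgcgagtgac
Psmd8: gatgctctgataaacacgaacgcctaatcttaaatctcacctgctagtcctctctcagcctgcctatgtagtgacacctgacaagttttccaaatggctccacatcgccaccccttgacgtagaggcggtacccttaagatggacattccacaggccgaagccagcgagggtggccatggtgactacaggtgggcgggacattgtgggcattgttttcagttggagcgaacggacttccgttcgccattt
The letters CCGGAAG, the core of sites for ETS factors, were searched on both strands. They occur in 11 of the 36 promoters (30.56%), against 7.053% of all 27025 promoters of the same length. Psmg1 and Psmd12 hold this motif and Psmg4, Psmb6 and Psmd8 do not. The letters TGANNNNGC, the core of the antioxidant response element bound by Nrf factors, occur in 12 of 36 (33.33%), against 35.14% of all. CCAAT, the box bound by NF-Y, also occurs in 12 of 36 (33.33%), against 34.46% of all. The longer TGACTCAGC occurs in 0 of 36, against 0.3626% of all promoters. It overlaps the shorter response element by construction, and no promoter of the 36 held overlapping matches of the other motifs. A match of letters is not a binding site, and binding was not measured.

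Read depth was inferred from the steps between low RPKM values, which were found in 42 of 47 libraries and implied 26.81 to 98.2 megareads, up to a whole multiple. A gene of 1 kilobase then gains 0.01018 to 0.03731 RPKM per read. All members averaged above 1 RPKM, and how far depth limits the lowest values, such as 0.490 RPKM for Psme2, was not tested. All 10 fibroblast markers were found. Their summed level was 6891 to 7270 RPKM in feeders, 527 to 1554 RPKM in SC iPS cells, 569 to 4386 RPKM in SC d23 and 5154 to 8872 RPKM in SI d23 libraries. Acta2, Col1a1 and Tagln weighed most in it, with means of 1834, 1653 and 1305 RPKM in feeders. Not every marker followed the sum: Dcn averaged 80.4 RPKM in feeders, 84.05 RPKM in SC iPS and 145 RPKM in SI d23 libraries. Postn averaged 49.9 RPKM in feeders and 142 RPKM in SI d23 libraries. The summed level of 10 pluripotency markers was 952.5 to 1588 RPKM in SC iPS cells and 0.280 to 1.21 RPKM in feeders. In every comparison below in which these marker levels differ between the groups, their part in the result was not tested. In such bulk RNA, fewer cells of a type and less RNA per cell cannot be told apart. Clone SC2 stood apart: its pluripotency marker sum at d23 was 317 RPKM and its fibroblast marker sum 4386 RPKM, while the other SC clones had 1067 to 1649 RPKM and 569 to 2144 RPKM.

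Core and cap genes were expressed in every library. Together they took 0.496% to 0.925% of the summed RPKM of a library. Per-length levels among subunits differed far more than levels among groups. In the alpha ring they ran from 4.31 RPKM for Psma3 to 84.5 RPKM for Psma6, and in the beta ring from 9.19 RPKM for Psmb3 to 104 RPKM for Psmb1 (means over 47 libraries). Among the cap ATPases, which unfold substrates, Psmc2 was lowest at 21.7 RPKM and Psmc5 highest at 92.2 RPKM. Among the other cap subunits Psmd11 was lowest at 16.1 RPKM and Psmd8 highest at 116 RPKM. The activators and inhibitor ran from 1.44 RPKM for Psme2 to 53.0 RPKM for Psme3, and the assembly factors from 4.26 RPKM for Psmd9 to 21.3 RPKM for Psmg4. RefSeq lists pseudogenes of Psma5, Psmb5, Psmb6 and Psmb7, and how reads shared with them were counted is not given in the sources used here, so these levels are uncertain.

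The median coefficient of variation over the 47 libraries was 18.6% in the alpha ring, 17.3% in the beta ring, 17.3% in the cap ATPases and 17.6% in the other cap subunits. It was 24.9% in the assembly factors and 33.3% in the activators and inhibitor. The steadiest members were Psmd10 (10.1%), a chaperone of the cap base also called gankyrin, and Psmf1 (10.2%), which inhibits the core in vitro. Psmg4 varied 6.42-fold and Psmg1 5.63-fold between the lowest and the highest library.

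As deposited, core and cap levels were highest in SC iPS cells and at d27, and lowest in feeders and in SI clones off doxycycline. The mean over the 14 core genes, on the log2(RPKM + 1) scale, was 5.04 ± 0.11 at d14, 5.28 ± 0.21 at d21, 5.26 ± 0.27 at d22, 5.17 ± 0.20 at d23 and 5.41 ± 0.16 at d27 in SC clones, and 5.42 ± 0.27 in SC iPS cells (SD, n = 4 each). In SI clones it was 5.06 ± 0.12 at d14, 5.13 ± 0.19 at d21, 4.93 ± 0.10 at d22, 4.87 ± 0.13 at d23 and 5.31 ± 0.06 at d27 (SD, n = 4 each). Feeders had 4.87 ± 0.01 (SD, n = 3). The top of the order was SC iPS, SC d27 and SI d27, whose ranges overlapped, and the bottom was SI d23, feeder and SI d22, whose ranges overlapped too. Neither end stood apart from the middle. SC d21 ranged from 5.02 to 5.53, against 5.25 to 5.38 in SI d27. SI d21 ranged from 4.87 to 5.27, against 4.83 to 5.05 in SI d22. After rescaling by the median ratio, the core was still highest in SC iPS, at 5.51, and SC d27, at 5.37, but feeders, at 5.03, were above SC d14, at 5.02, and the lowest were SI d23, at 4.93, and SI d22, at 4.90. As deposited, the 17 cap genes averaged 5.71 in SC iPS, 5.78 in SC d27, 5.71 in SI d27 and 5.22 in feeder libraries on the same scale. Of the 31 core and cap genes, 12 had their highest group mean in SC d27, 11 in SC iPS and 5 in SI d27, while 14 had their lowest in feeders and 8 in SI d23, as deposited. After rescaling, the cap averaged 5.34 in SI d23, 5.31 in SI d22 and 5.34 in SI d21, against 5.39 in feeder libraries, so feeders were no longer lowest. As deposited, the activators and inhibitor averaged 4.23 in SC iPS and 3.48 in feeder libraries, on the log2 scale. In SC clones they averaged 3.70 at d14, 3.95 at d21, 4.13 at d22 and d23 and 4.05 at d27. In SI clones they averaged 3.67 at d14, 3.64 at d21, 3.77 at d22 and 3.72 at d23 and d27. After rescaling they averaged 4.31 in SC iPS, 3.67 in SI d27, 3.63 in feeder and 3.60 in SI d21 libraries. The assembly factors averaged 4.11 in SC iPS, 3.34 in SI d23 and 3.45 in feeder libraries as deposited, and 4.20, 3.39 and 3.60 after rescaling.

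**Figure D1:**
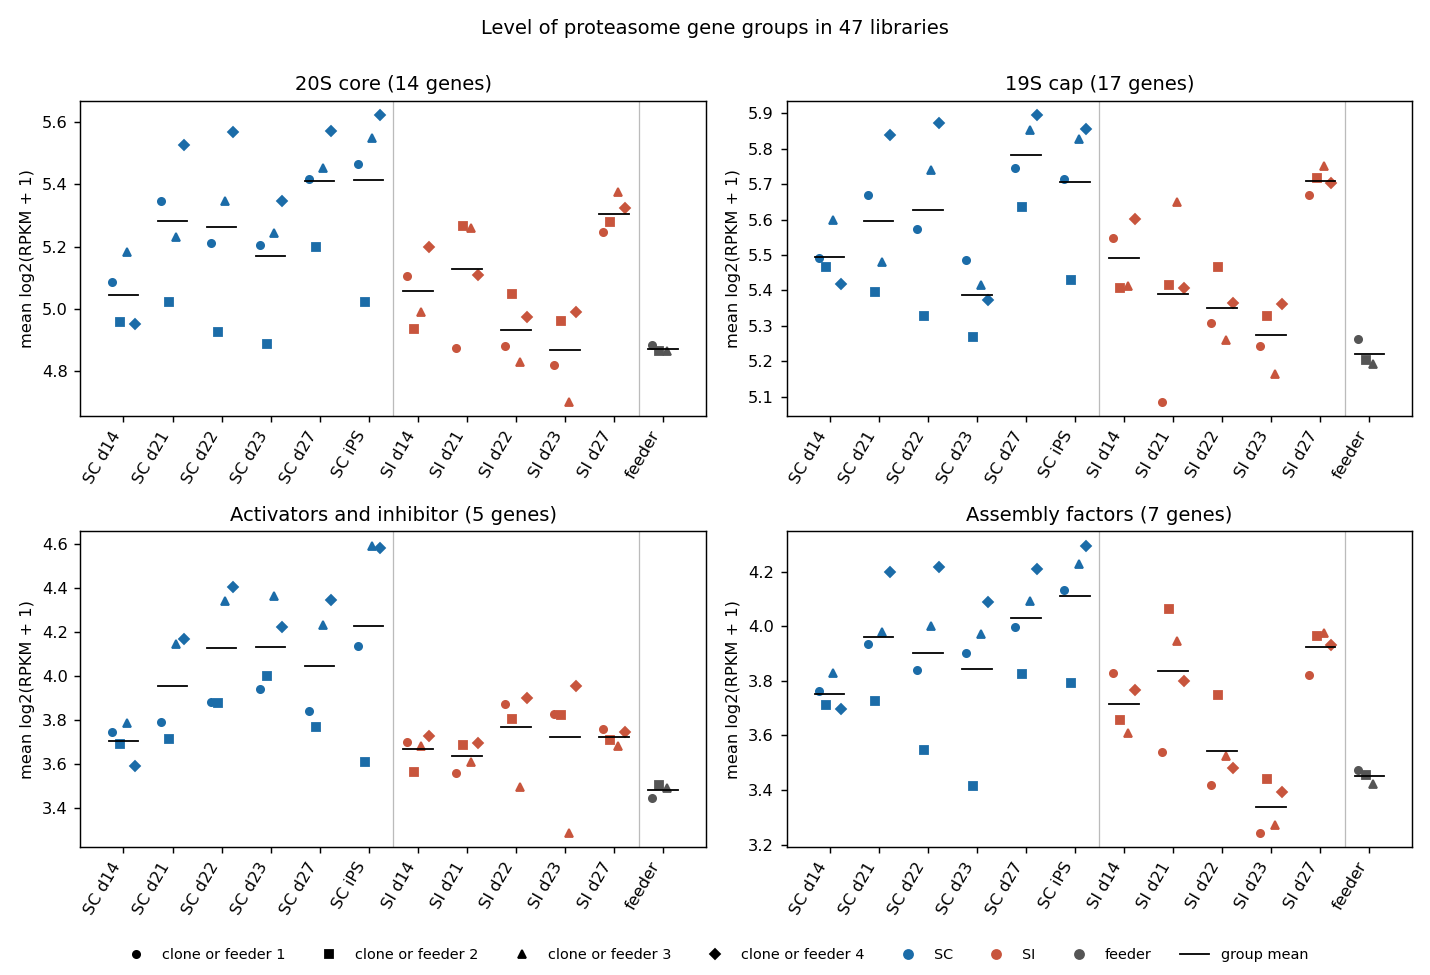
Mean log2(RPKM + 1) of the core, the cap, the activators with the inhibitor, and the assembly factors (y axes, which do not start at 0) in each of 47 libraries, by group (x axis); points are clones or feeder libraries and bars are group means. Core levels ranged from 5.02 to 5.62 in SC iPS cells and from 4.87 to 4.88 in feeders, and SI d23 assembly factor levels were as low as those of feeders.

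**Figure D2:**
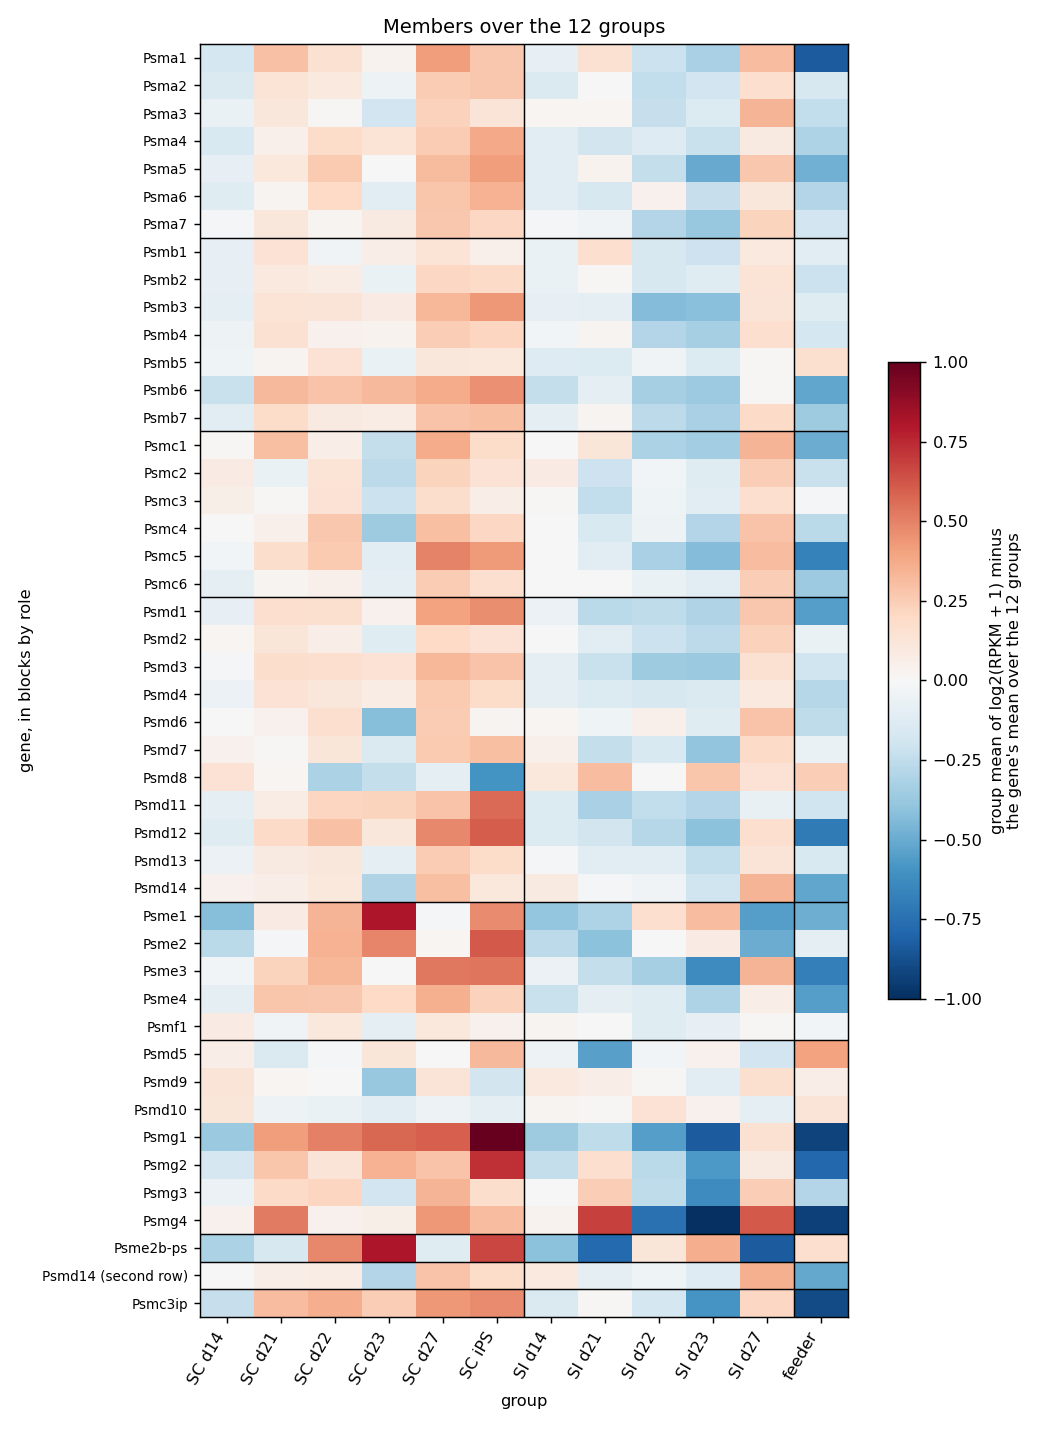
Group mean of log2(RPKM + 1) of each of the 46 members (rows, in blocks by role) minus that gene's mean over the 12 groups, with the colour scale running from -1 to 1. Feeder and SI d23 columns are mostly blue and SC d27, SC iPS and SI d27 columns mostly red; Psmd8 is blue in SC iPS cells (74.8 RPKM) and red in feeders (135 RPKM), and in SI d27 it is red like most members.

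Within the SC class, some subunits differed by clone. Psmb6, the beta subunit with caspase-like activity, had 59.8, 41.1, 87.3 and 95.0 RPKM in clones SC1 to SC4 as iPS cells, against 32.3, 35.2 and 33.2 RPKM in feeders. At d21 the same clones had 53.8, 40.2, 68.2 and 94.3 RPKM, against 38.2, 50.7, 49.2 and 44.6 RPKM in clones SI1 to SI4. Clone SC2 stayed within or below the SI range at each time after d14, while SC3 and SC4 were above every SI library from d21 on. At d14, SC clones had 36.4 to 49.2 RPKM and SI clones 35.4 to 46.3 RPKM. Psmd12, a lid subunit of the cap, showed the same order in iPS cells, with 53.2, 41.1, 78.3 and 82.1 RPKM in SC1 to SC4, against 22.8 to 26.2 RPKM in feeders. Psmb5, the chymotrypsin-like subunit that bortezomib inhibits, showed less of it, with 46.5, 37.1, 44.9 and 53.0 RPKM in SC1 to SC4 iPS cells, against 45.8 to 48.5 RPKM in feeders.

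SC iPS cells had more transcript of most proteasome genes than feeders. Of 46 members tested, 33 were higher and 2 lower at an adjusted p under 0.05 (limma on log2(RPKM + 1), Benjamini-Hochberg over all genes tested). This contrast moved most of the transcriptome: 41.2% of 12210 genes were higher and 38.8% lower, so 71.7% of members higher stood above the background, and 4.35% lower stood below it. The median difference was 0.51 over members and 0.06 over all genes tested, on the log2 scale. By role, 7 of 7 alpha ring, 4 of 7 beta ring, 5 of 6 ATPase, 8 of 11 other cap, 3 of 5 activator and inhibitor and 4 of 7 assembly genes were higher. The groups did not overlap for 29 members that were higher and 3 that were lower, against 40.4% and 40% of all genes. Leaving out each library in turn left 26 to 42 members called, and the 42 were found without clone SC2.

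Among the members, 2 assembly chaperones, Psmg1 and Psmg2, had the largest rises in iPS cells, followed by Psmc3ip (1.37 ± 0.23, SE; limma adjusted p = 6.1e-04). Psmg1, which pairs with Psmg2 to nucleate the alpha ring, had 36.2, 24.3, 40.4 and 43.7 RPKM in SC1 to SC4 iPS cells, against 8.09, 9.22 and 7.76 RPKM in feeders. Every iPS library was above every feeder, and the log2 difference was 1.96 ± 0.19 (SE; limma adjusted p = 2.4e-05). Its partner Psmg2 had 30.4, 17.4, 29.7 and 31.4 RPKM in SC iPS cells, against 8.66, 8.18 and 9.05 RPKM in feeders, and rose by 1.52 ± 0.19 (SE; limma adjusted p = 1.1e-04). Psmg4, which works with Psmg3 in the second chaperone pair, rose by 1.24 ± 0.15 (SE), and Psmg3 by 0.47 ± 0.17 (SE; limma adjusted p = 0.032). The 3 chaperones of the cap base did otherwise: Psmd9 fell by 0.26 ± 0.10 (SE; limma adjusted p = 0.040), while Psmd10 had a log2 difference of -0.22 (limma adjusted p = 0.075) and Psmd5 of -0.08 (limma adjusted p = 0.54). The call of Psmd9 was lost with no filter on low values (limma adjusted p = 0.058) and without any 1 of SC iPS replicate 1, SC iPS replicate 3 and the 3 feeder libraries (limma adjusted p = 0.050 to 0.11).

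In the core, Psma1 of the alpha ring rose by 1.10 ± 0.14 (SE) and Psmb6 by 0.98 ± 0.26 (SE). Psmb5 had a log2 difference of -0.05 ± 0.13 (SE; limma adjusted p = 0.70), and its sign turned without SC iPS replicate 2. In the cap, Psmd12 rose by 1.31 ± 0.23 (SE), the ATPase Psmc5 by 1.10 ± 0.17 (SE) and Psmd1, a large scaffold of the base, by 1.02 ± 0.12 (SE). Psmd14, the enzyme that cuts ubiquitin off the substrate, had 35.1, 30.5, 37.0 and 37.5 RPKM in SC iPS cells, against 25.1, 22.1 and 19.9 RPKM in feeders. It rose by 0.63 ± 0.11 (SE; limma adjusted p = 9.1e-04), and the second row of that symbol by 0.69 ± 0.10 (SE). Psmd11 rose by 0.77 ± 0.18 (SE; limma adjusted p = 0.0036), with 21.2, 17.2, 29.9 and 28.0 RPKM in SC iPS cells, against 12.9, 13.5 and 13.8 RPKM in feeders. The ubiquitin receptor Psmd4 rose by 0.47 ± 0.15 (SE; limma adjusted p = 0.016), a call lost without feeder replicate 2 (limma adjusted p = 0.058).

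Psmd8, a lid subunit, went the other way. It had 77.4, 73.8, 71.3 and 76.9 RPKM in SC iPS cells, against 142, 132 and 132 RPKM in feeders, with every iPS library below every feeder. The difference was -0.84 ± 0.09 on the log2 scale (SE; limma adjusted p = 5.0e-05). It was the only member of the core or cap that fell in this comparison.

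**Figure D3:**
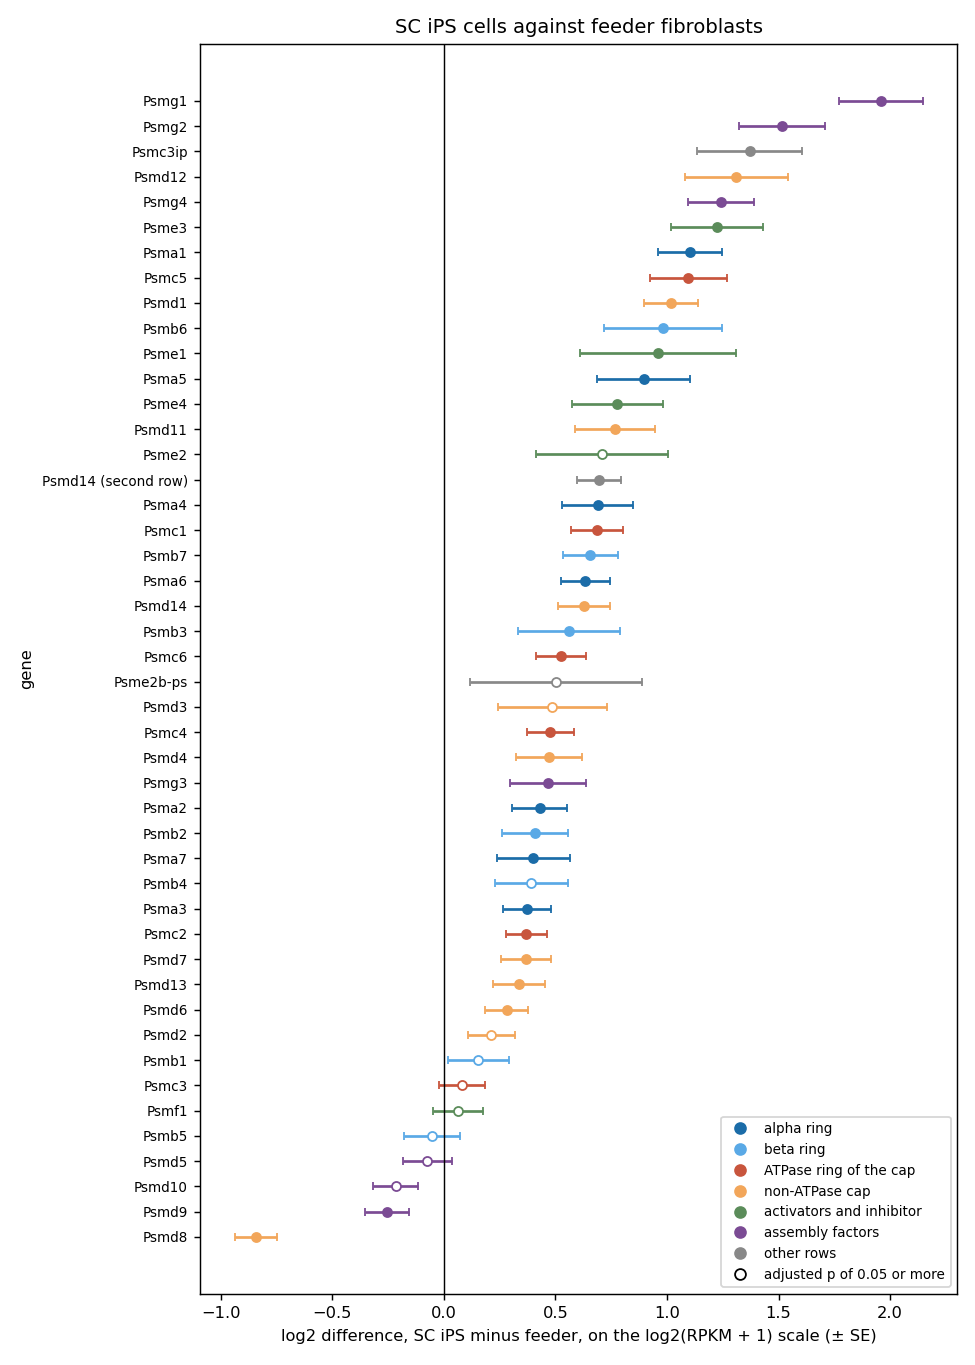
Log2 difference between SC iPS cells and feeders on the log2(RPKM + 1) scale (x axis, with SE) for each of the 46 members (y axis, ordered by the difference), coloured by role; open points had an adjusted p of 0.05 or more. Psmg1 is at the top with 1.96 and Psmd8 at the bottom with -0.84.

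Among the activators, Psme3, which forms a nuclear ring that opens the core without ubiquitin, had 68.5, 49.2, 89.8 and 92.4 RPKM in SC iPS cells, against 31.4, 30.1 and 30.1 RPKM in feeders. It rose by 1.23 ± 0.21 (SE; limma adjusted p = 5.6e-04). Psme4, the large single-chain activator, rose by 0.78 ± 0.20 (SE; limma adjusted p = 0.0069). Psme1, the alpha subunit of the interferon-induced activator, rose by 0.96 ± 0.35 (SE; limma adjusted p = 0.030), and this call was lost with no filter on low values (limma adjusted p = 0.053) and without SC iPS replicate 3 or 4 or any feeder (limma adjusted p = 0.067 to 0.082). Clone SC2 had 29.7 RPKM of Psme1 as iPS cells, within the feeder range of 28.3 to 30.0 RPKM, while SC1, SC3 and SC4 had 48.1, 87.9 and 87.4 RPKM. The inhibitor Psmf1 had a log2 difference of 0.06 (limma adjusted p = 0.61). Psme2, the partner of Psme1, was listed at only 0.490 to 3.96 RPKM over all libraries, while its retrocopy Psme2b-ps was listed at 27.1 to 151 RPKM. The 2 are near-identical and reads of one may be counted for the other, so their separate values are uncertain, and neither passed the test here (limma adjusted p = 0.053 for Psme2 and 0.26 for Psme2b-ps). Without SC iPS replicate 2, Psme2 passed with 1.00 (limma adjusted p = 1.6e-04).

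SC clones were compared with SI clones at each time. At d14 22 of 45 members tested had a positive and 23 a negative log2 difference. Limma called 0 of them, as it did 0% of 11714 genes, and at an unadjusted limma p under 0.05 there were 0 members and 1.44% of genes. At d21, 38 of 45 members were higher in sign in SC clones with a median of 0.18, against -0.0039 over all genes, and 0 were called (0% of 11757 genes). At an unadjusted limma p under 0.05 there were 4, Psme4, Psmg1, Psmd1 and Psme2b-ps, all in the direction of SC (8.89% of members, against 8.7% of genes higher). At d22, 43 of 46 members were higher in sign with a median of 0.32, against -0.06 over all genes, and 0 were called (0% of 11880 genes). At an unadjusted limma p under 0.05, 19 members were higher (41.3%, against 18.9% of all genes) and Psmd8 was lower (16% of genes). Without SC d22 replicate 2, 21 members were called higher in SC clones. That fit called 4147 genes in either direction, where 11880 were tested with every library kept.

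At d23, after 2 days without doxycycline, the test called 11 members higher and 1 lower in SC clones of 46 tested. The background was 23% of 11805 genes higher and 19.5% lower, so the 23.9% of members called higher was close to it, and the 2.17% called lower was under it. The median difference was 0.30 over members and -0.01 over all genes. By role, the calls were 4 of 7 assembly factors, 2 of 5 activators and inhibitor, 2 of 7 alpha ring, 0 of 7 beta ring, 0 of 6 ATPase and 3 of 11 other cap genes, with Psmc3ip besides. All of them rest on adjusted p-values between 0.022 and 0.048. The count fell to 0 without SC d23 replicate 1, 3 or 4 or SI d23 replicate 2, 3 or 4. It was 2 without SI d23 replicate 1 and 23 without SC d23 replicate 2. Calls over all genes swung too, from 2 to 7978 as each library was left out, against 5021 with every library kept. These member counts alone are therefore no result about the members. With no filter on low values, 5 members were called.

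All 4 chaperones of the core's alpha ring were among those calls. Psmg1 had 26.9, 13.1, 32.9 and 35.8 RPKM in SC1 to SC4 at d23, against 8.33, 8.92, 8.60 and 10.2 RPKM in SI1 to SI4. The classes did not overlap, SC2 was the lowest SC clone, and the log2 difference was 1.40 ± 0.28 (SE; limma adjusted p = 0.022). That difference stayed between 1.25 and 1.71 as each library was left out. Psmg4 had 19.5, 11.6, 25.3 and 28.1 RPKM in SC clones, against 8.24, 10.3, 6.80 and 9.91 RPKM in SI clones, and was higher by 1.12 ± 0.26 (SE; limma adjusted p = 0.024). Again the classes did not overlap and SC2 was lowest in its class. Psmg2 was higher by 0.92 ± 0.26 (SE; limma adjusted p = 0.031) and Psmg3 by 0.44 ± 0.14 (SE; limma adjusted p = 0.042), and for both genes clone SC2 lay within the SI range, with 10.9 RPKM of Psmg2 and 8.55 RPKM of Psmg3.

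**Figure D4:**
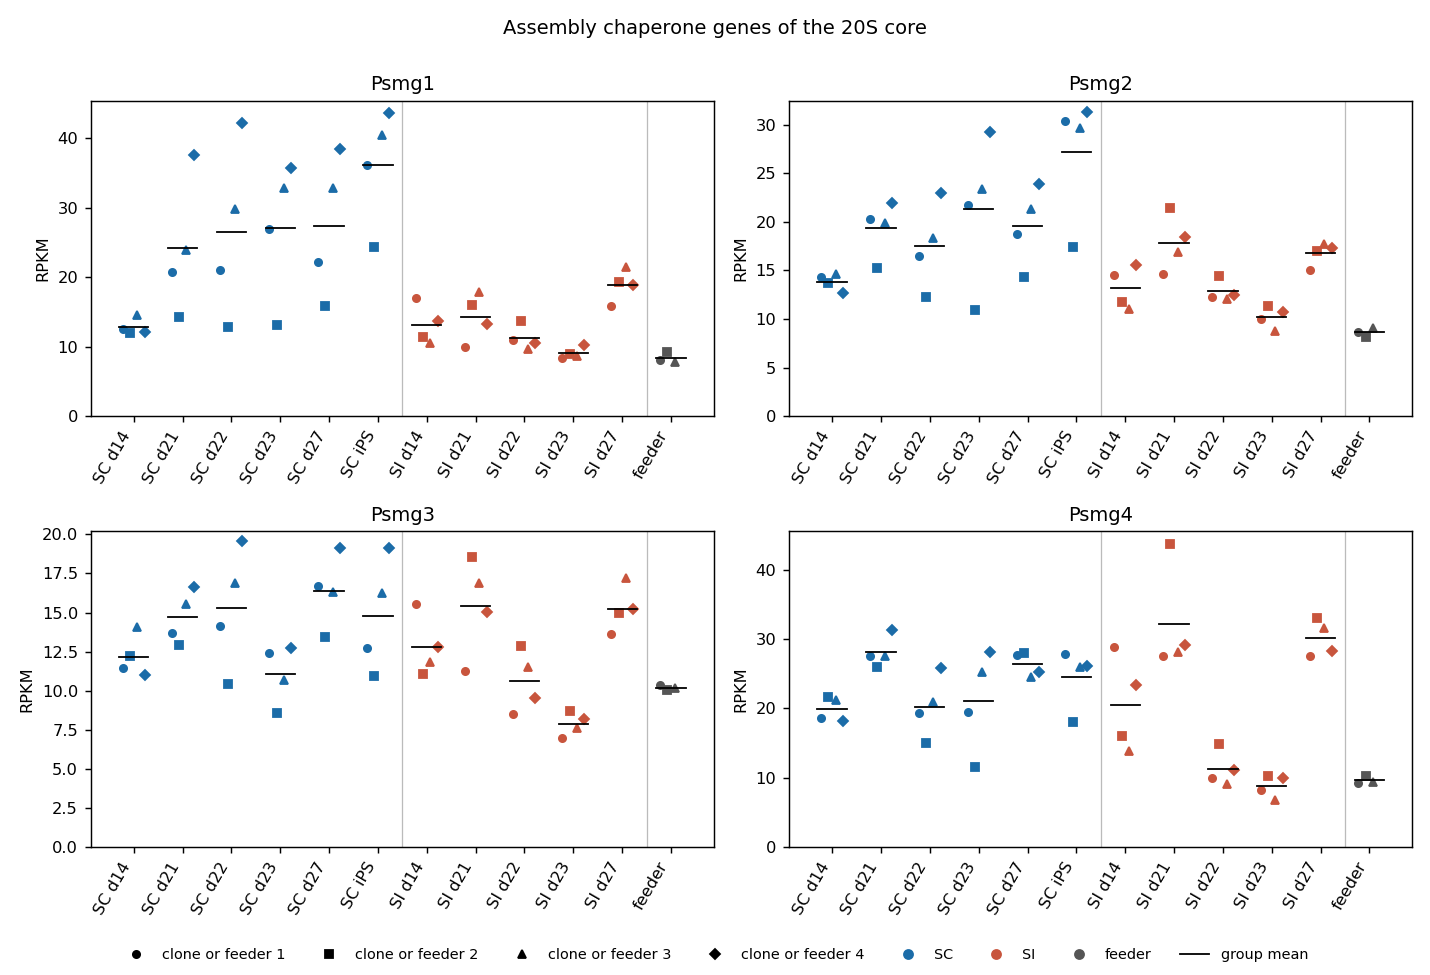
RPKM (y axes) of the 4 alpha ring chaperone genes in each library by group (x axis); points are clones or feeder libraries and bars are group means. Psmg1 was 13.1 to 35.8 RPKM in SC d23 and 8.33 to 10.2 RPKM in SI d23 libraries, and Psmg4 in SI clones was 27.5 to 43.7 RPKM at d21 and 6.80 to 10.3 RPKM at d23.

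In the cap, the lid subunits Psmd12 and Psmd11 were higher in SC clones at d23, by 0.52 ± 0.17 and 0.51 ± 0.18 (SE; limma adjusted p = 0.041 and 0.045). Psmd11 had 16.0, 13.5, 22.9 and 22.8 RPKM in SC clones, against 12.2, 12.3, 12.5 and 13.2 RPKM in SI clones, with no overlap. Its call was lost after rescaling libraries by their median ratio (limma adjusted p = 0.065) and with no filter on low values (limma adjusted p = 0.060). Psmd8 was lower in SC clones, with 92.8, 109, 95.7 and 89.6 RPKM, against 131, 148.5, 127 and 147 RPKM in SI clones, again with no overlap (-0.51 ± 0.13, SE; limma adjusted p = 0.027). Psmd4 and Psmd14 had log2 differences of 0.22 and -0.10 (limma adjusted p = 0.20 and 0.52).

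In the core, Psma5 and Psma7 of the alpha ring were higher in SC clones at d23 by 0.50 ± 0.16 and 0.47 ± 0.16 (SE; limma adjusted p = 0.039 and 0.048). No beta ring gene passed: Psmb6 had 51.9, 38.4, 77.1 and 90.3 RPKM in SC clones, against 37.2, 43.6, 29.2 and 42.2 RPKM in SI clones, and its log2 difference of 0.69 ± 0.27 (SE) had a limma adjusted p of 0.067. Psmb5 had a log2 difference of 0.07 (limma adjusted p = 0.71). Of the activators, Psme3 and Psme4 were higher by 0.63 ± 0.17 and 0.51 ± 0.17 (SE; limma adjusted p = 0.029 and 0.041). The call of Psme4 was lost with no filter on low values (limma adjusted p = 0.053). Psme1 had 54.0, 73.3, 93.9 and 76.1 RPKM in SC clones, against 68.3, 61.1, 22.5 and 73.4 RPKM in SI clones, and SI3 alone lay far below the others (limma adjusted p = 0.28). Psme2 and Psmf1 had log2 differences of 0.41 and -0.02 (limma adjusted p = 0.11 and 0.92).

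At d27, with doxycycline kept on throughout, 36 of 45 members were higher in sign in SC clones with a median of 0.10, against -0.02 over all genes, and 0 were called, among 0.634% of 11513 genes. At an unadjusted limma p under 0.05 there were 2, Psme4 and Psme1, both higher, against 9.73% of genes higher. Without SC d27 replicate 2, 5 members were called, all higher. That fit called 2796 genes in either direction, where 11513 were tested with every library kept, so the members' share was under the background.

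The alpha ring chaperones fell in SI clones once doxycycline had been withdrawn. In SI d23 against SI d21, 10 of 45 members fell and 2 rose, against 32% of 11796 genes lower and 22.7% higher, so the 22.2% of members that fell and the 4.44% that rose were both under the background. The median was -0.16 over members and -0.12 over all genes. Rescaling by the median ratio brought the median of all genes to -0.03 and the counts to 8 members lower and 2 higher. Psmg4 fell most: it had 8.24, 10.3, 6.80 and 9.91 RPKM in SI1 to SI4 at d23, against 27.5, 43.7, 28.1 and 29.1 RPKM at d21. Every clone fell, and the log2 difference was -1.74 ± 0.18 (SE; limma adjusted p = 1.9e-04). Psmg3, Psmg2 and Psmg1 fell by 0.87 ± 0.15, 0.74 ± 0.13 and 0.58 ± 0.17 (SE; limma adjusted p = 0.0017, 0.0021 and 0.019), and the call of Psmg1 was lost in one fit over all 12 groups (limma adjusted p = 0.070) and without SI d21 replicate 2 (limma adjusted p = 0.055).

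At d27, when doxycycline had stayed on, Psmg4 had 27.5, 33.1, 31.6 and 28.3 RPKM in SI1 to SI4. These lie within its d21 range of 27.5 to 43.7 RPKM, and above its d22 range, after 1 day without the drug, of 9.04 to 14.8 RPKM. In SC1 to SC4 Psmg4 had 27.5, 25.9, 27.6 and 31.4 RPKM at d21. It had 19.3, 15.1, 20.9 and 25.8 RPKM at d22 and 19.5, 11.6, 25.3 and 28.1 RPKM at d23. Every SC clone was lower at d23 than at d21. That fall did not pass (limma adjusted p = 0.36 for d23 against d21), nor did it with the clone as a block.

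The other members that fell in SI clones at d23 were Psma5 and Psma1 of the alpha ring, Psmb1 and Psmb7 of the beta ring, the ATPase Psmc1 and Psmc3ip, by 0.35 to 0.60 on the log2 scale. Psmd5, a chaperone of the cap base, rose by 0.59 ± 0.16 (SE; limma adjusted p = 0.013), with 14.1, 16.9, 17.1 and 15.8 RPKM at d23, against 7.67, 10.1, 13.7 and 10.4 RPKM at d21. Psme2b-ps rose by 1.14 ± 0.19 (SE; limma adjusted p = 0.0015). Psme1 had 68.3, 61.1, 22.5 and 73.4 RPKM at d23, against 34.3, 40.6, 25.3 and 33.7 RPKM at d21. The limma adjusted p was 0.16, and 0.041 with the clone as a block. SI3 was the only SI clone whose value was lower at d23 than at d21, and without SI d23 replicate 3 the difference passed at 1.01 (limma adjusted p = 0.0018). The log2 differences of Psmb5, Psmd4, Psmd11, Psmd14, Psme3, Psme4 and Psmf1 lay between -0.39 and 0.03 and none passed (lowest limma adjusted p = 0.072, for Psme3), though Psme3 passed without SI d21 replicate 1 (-0.52, limma adjusted p = 0.020). The fibroblast marker sum was 5154 to 8872 RPKM in SI d23 and 1010 to 2751 RPKM in SI d21 libraries.

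In SC clones, 0 of 46 members were called for d23 against d21, among 3.79% of 11975 genes. With the clone as a block, 3 members passed, against 13.4% of genes: Psme1 and Psme2b-ps rose by 0.73 and 0.96 (limma adjusted p = 0.025 and 0.027) and Psmc1 fell by 0.53 (limma adjusted p = 0.023). Psme1 had 54.0, 73.3, 93.9 and 76.1 RPKM in SC1 to SC4 at d23, against 37.4, 33.0, 54.9 and 53.2 RPKM at d21, higher in 4 of 4 clones. At an unadjusted limma p under 0.05 and without the block there were 8 of 46 members, a share under the 19.4% of genes. The change of d23 from d21 in SC clones minus that in SI clones called 0 of 46 members and 0% of 12714 genes. With the clone as a block it called 4 members and all were positive, against 12.4% of genes with a positive call: 1.28 for Psmg4, 0.81 for Psmg2, 0.73 for Psmg1 and 0.49 for Psmg3 (limma adjusted p = 0.033, 0.033, 0.041 and 0.046). At an unadjusted limma p under 0.05 and without the block there were 3 members, all positive. Their share of 6.52% was under the 13.4% of genes that were positive.

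Levels at d27, with doxycycline kept on, were compared with those at d21. In SI d27 against SI d21, 38 of 45 members were higher in sign with a median of 0.23, against 0.01 over all genes, and 0 were called (0% of 11590 genes). At an unadjusted limma p under 0.05, 18 members were higher and 0 lower (40% of members, against 17.3% of genes higher). The SI clones lay close together at d27: Psme3 had 63.3, 63.9, 62.6 and 63.4 RPKM, against 32.0, 38.9, 57.0 and 44.2 RPKM at d21 (limma adjusted p = 0.093). SI1 was the lowest clone at d21 for Psme3, and SI d21 replicate 1 was the lowest of all 47 libraries for 9 of 31 core and cap genes. SI d23 replicate 3 was the lowest for another 9. Without SI d21 replicate 3, whose fibroblast marker sum of 2751 RPKM was the highest at SI d21, 24 members were called higher and 1 lower. That fit called 5735 genes in either direction, where 11590 were tested with every library kept, so a large part of the transcriptome moved too. In SC d27 against SC d21 the median was 0.14 over members and -0.02 over all genes. There 0 of 46 members were called, among 0.00847% of 11804 genes. At an unadjusted limma p under 0.05 there were 2, Psmc6 and Psmd14, both higher, against 4.96% of genes higher. With the clone as a block, 0 of the 43 subunits, activators and assembly factors passed either. Many more genes over the whole table then passed, as given in the last section, so the low share above rests on the fit without the block.

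SC iPS cells were also compared with SC d27 cells. Of 46 members 0 were called, among 1.62% of 11675 genes. One fit over all 12 groups called 2, the fit without SC iPS replicate 2 called 2 and that without SC d27 replicate 4 called 1. Calls over all genes ran from 9 to 2766 as each library was left out. The fit over all 12 groups also called many more genes, as given in the last section. In the fit of these 8 libraries, at an unadjusted limma p under 0.05 there were 3, all lower, against 21.7% of genes lower. The direction over members rested on the scaling: 19 of 46 were positive as deposited, and 39 of 46 after rescaling by the median ratio, which moved the median of all genes to 0.04 from -0.08. All genes called were 49 higher and 140 lower as deposited, and 89 higher and 113 lower after rescaling. With the clone as a block 3 members passed, against 12% of genes: Psmg2 and Psme2b-ps were higher by 0.44 and 0.79 (limma adjusted p = 0.043 and 0.027) and Psmd8 fell by 0.51 (limma adjusted p = 0.038). Psmd8 had 77.4, 73.8, 71.3 and 76.9 RPKM in SC1 to SC4 iPS cells, against 120, 120, 99.5 and 91.6 RPKM at d27, and every clone was lower as iPS cells.

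**Figure D5:**
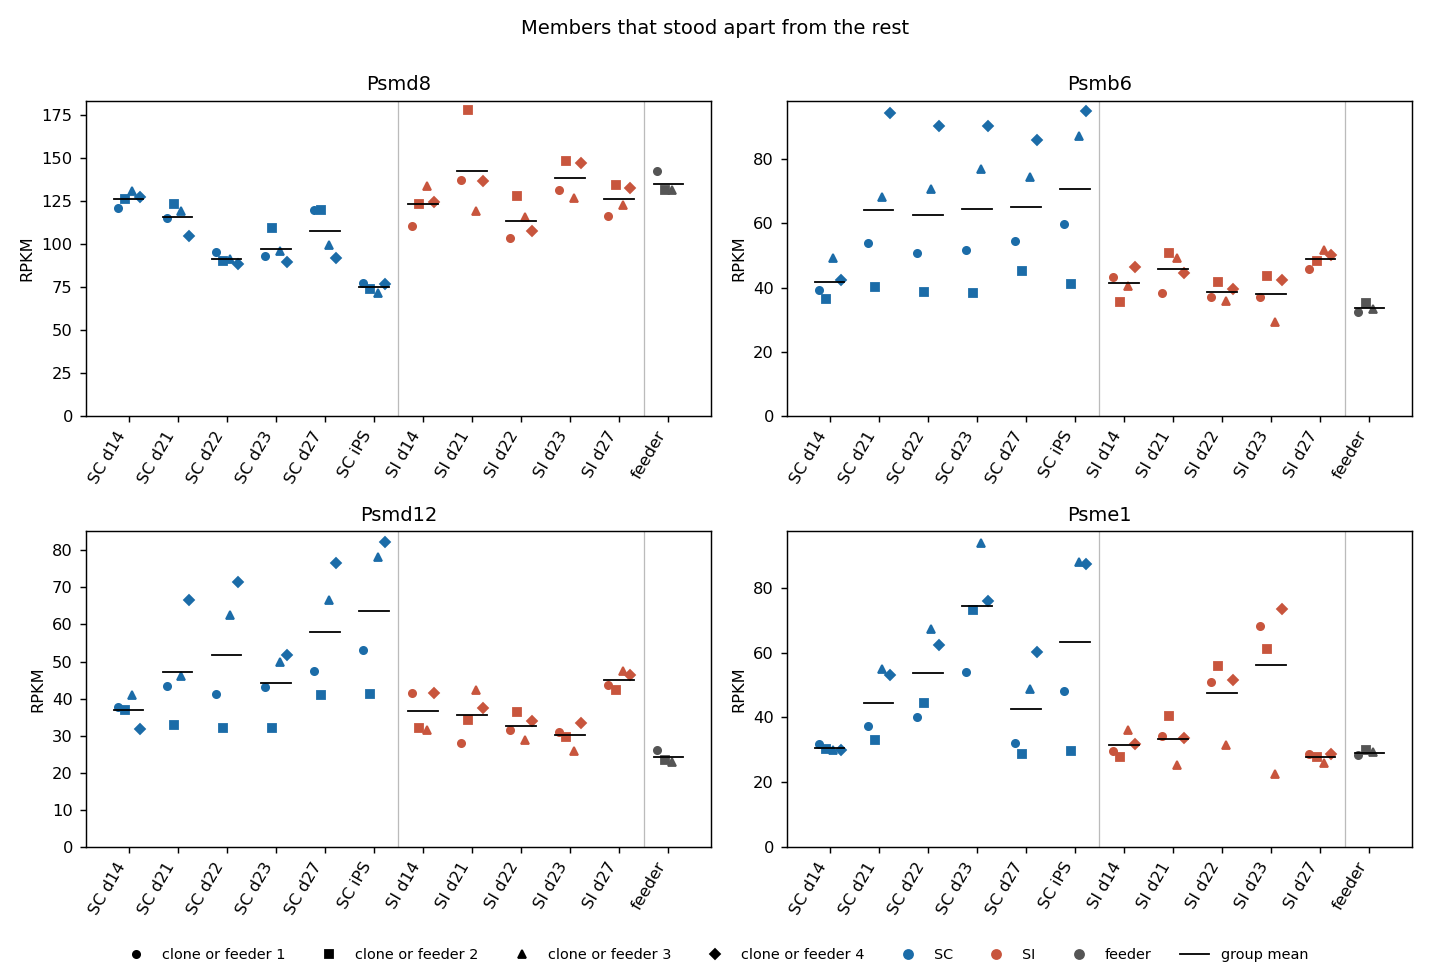
RPKM (y axes) of Psmd8, Psmb6, Psmd12 and Psme1 in each library by group (x axis); points are clones or feeder libraries and bars are group means. Psmd8 is lowest in SC iPS cells, at 71.3 to 77.4 RPKM. Psmb6 and Psmd12 spread widely among SC libraries, and Psme1 reached 93.9 RPKM at SC d23 and 73.4 RPKM at SI d23.

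A further 48 genes of the pathway were looked up in 5 lists, and 47 were found. They cover the immunoproteasome, subunits and bound enzymes outside the naming rule, transcriptional control, ubiquitin with its shuttling factors, and interferon-induced antigen processing. In SC against SI at d23, 8 of 46 tested were higher and 7 lower, against 23% and 19.5% of all genes, so neither count was above the background. Both tested immunoproteasome subunits were higher in SC clones. Psmb10 averaged 24.7 RPKM in SC clones and 7.63 RPKM in SI clones and was higher by 1.46 ± 0.34 (SE; limma adjusted p = 0.024), and Psmb8 averaged 19.3 RPKM in SC clones and 7.95 RPKM in SI clones and was higher by 1.07 ± 0.37 (SE; limma adjusted p = 0.046). Ubqln4, a shuttle that carries ubiquitinated proteins to the proteasome, was higher by 1.13 ± 0.24 and Nfyb, a subunit of NF-Y, by 1.04 ± 0.25 (SE; limma adjusted p = 0.023 and 0.024). Maf, a basic leucine zipper factor, and Uba6, a ubiquitin-activating enzyme, were lower, with log2 differences of -1.13 ± 0.23 and -0.75 ± 0.17 (SE; limma adjusted p = 0.022 and 0.023). Over all genes, calls in this comparison ran from 2 to 7978 as each library was left out, so these calls may depend on 1 library.

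In SC iPS cells against feeders, 13 of 46 of these genes were higher and 20 lower, against 41.2% and 38.8% of all genes. Uchl5, a deubiquitinase bound to the cap, was higher by 2.76 ± 0.18 and Ubqln4 by 1.68 ± 0.13 (SE; limma), while Maf and the antigen-presenting molecule H2-D1 were lower, with log2 differences of -1.31 ± 0.10 and -1.58 ± 0.13 (SE; limma). Of 10 genes of transcriptional control, 4 were higher and 6 lower, against the same background. Nfe2l1, the factor known to raise proteasome genes when the proteasome is inhibited, had a log2 difference of -0.88 ± 0.13 (SE; limma adjusted p = 2.6e-04), with a mean of 40.3 RPKM in SC iPS cells and 74.6 RPKM in feeders. Nfe2l2, its relative in the oxidative stress response, had a log2 difference of -0.73 ± 0.13 (SE; limma adjusted p = 8.1e-04). In SI d23 against SI d21, 19 of 46 were higher and 9 lower, against 22.7% and 32% of all genes, and 7 of 9 interferon-induced antigen processing genes were higher. The summed level of the 5 macrophage markers found of 6 looked up, most of it Lyz2, was 163 to 306 RPKM in SI d23 and 51.0 to 115 RPKM in SI d21 libraries, with the leukocyte marker Ptprc at 0.43 to 1.15 RPKM in SI d23 and 0.08 to 0.51 RPKM in SI d21. Csf1r and Aif1 of this list also averaged higher in SI d23, but Cd68 did not, at 7.23 RPKM against 7.405 RPKM in SI d21. In feeders the macrophage marker sum was 164 to 176 RPKM. The part of these markers in these counts was not tested. Nfe2l1 was higher by 0.66 ± 0.14 (SE; limma adjusted p = 0.0039) in that comparison. The change difference called 0 of 47 of these genes, and the named values of Nfe2l1 and Nfe2l2 were chosen after they were seen.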

How the data were processed

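Messenger RNA was sequenced by the authors as TruSeq libraries from 47 samples, per the labels' protocols. Only the deposited table was used, which holds 1 value per gene and library. Its unit is not named and was identified from the values as RPKM made by the authors: deposited RPKM times exon length summed, per library, to 0.788 to 0.998 of the total that RPKM implies, over 20750 genes with a length in GENCODE M21. Per the submitters' processing notes, CASAVA 1.8 and build mm9 are named, with no role given. Not given in the sources used here are its aligner, annotation and counting rule. Fits were made per comparison with limma 3.58.1 (R 4.3.3, eBayes with trend) on log2(RPKM + 1), from the libraries compared, and a fold change on this scale understates the change of low genes. A gene was tested if at least as many libraries as in the smaller group had 1 RPKM. Two-sided p-values received Benjamini-Hochberg adjustment over all genes tested, with a threshold of 0.05. The fits were tested on simulated data. Python 3.11.15, pandas 2.3.3, numpy 2.4.6 and matplotlib 3.10.9 made tables and figures.

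Clone names pair the times within a class, because each clone is 1 line. Same-clone deviations correlated at 0.49 to 0.58 for SC d23 with d21, 0.33 to 0.53 for SI d23 with d21, 0.42 to 0.92 for SC d27 with d21, 0.17 to 0.54 for SI d27 with d21 and 0.19 to 0.39 for SC iPS with d27. Alternatives were a pseudocount of 0.1, no filter, median-ratio rescaling, one fit over all 12 groups, the clone as a block and each library left out. The named members were Psmb5, Psmd4, Psmd11, Psmd14, Psme1, Psme2, Psme3, Psme4, Psmf1 and Psmg1, the 3 largest rises and falls per comparison, and the extremes of level per role, with others named beside them after their values were seen. Members and lists were chosen with earlier results of these data known. Motifs were searched in RefSeq promoters of GRCm38.p6, and no coordinates were converted between builds.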

Additional observations from a re-analysis of the deposited data

Results flagged for a closer look

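In 154 sets of 4 clones of 1 group, the gap between an extreme clone and its neighbour was looked at. Each set held the values of 1 gene, or the mean level of the core, the cap, the activators with the inhibitor, or the assembly factors. Psme1 in SC d14 cells stood out. SC1 had 31.93 RPKM, against 29.86 to 30.2 RPKM in the other SC clones, so the absolute gap was small. Chance alone marks about 1 set in 20.

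The change of d23 from d21 differed between SC and SI clones for the 4 alpha ring chaperones, by the interaction term of a limma fit with the clone as a block. The difference of log2 changes, SC minus SI, was 0.732 for Psmg1, 0.808 for Psmg2, 0.488 for Psmg3 and 1.282 for Psmg4. These were 4 of 46 members, against 12.4% of all genes with a positive call, so their share was under the background. Without the block none of the 4 passed. The lowest adjusted p of the 4 was then 0.12, for Psmg4 (limma). The fibroblast marker sum at d23 was 569 to 4386 RPKM in SC and 5154 to 8872 RPKM in SI clones, and its part in these differences was not tested.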

How the results depend on the processing

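Over the 12 comparisons, rescaling by the median ratio moved no count of calls by over 1.5 times. A pseudocount of 0.1 moved only the count over all genes of the change difference, which was 4. With no filter on low values, member calls at d23 numbered 5, and genes called were 1 for SC against SI at d21, 0 at d27, 0 for SC d27 against d21, 2 for SI d27 against d21, 1 for the change difference and 60 for SC iPS against d27. One fit over all 12 groups called, of members, 17 at d22, 23 at d23, 9 for SC d23 against d21, 9 for SI d27 against d21, 2 for the change difference and 2 for SC iPS against d27. Of all genes it called 81 at d21, 3474 at d22, 143 at d27, 1906 for SC d23 against d21, 7 for SC d27 against d21, 1372 for SI d27 against d21, 1872 for the change difference and 2131 for SC iPS against d27. The cause was not tested. Rescaling turned the signs of Psmd4 (0.0930) and Psmf1 (0.0105) in SI d23 against d21.

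With the clone as a replicate block, 3 members and 1600 genes were called for SC d23 against d21, 1330 genes for SC d27 against d21, 4 members and 2944 genes for the change difference and 3 members and 1399 genes for SC iPS against d27; no other within-class count moved by over 1.5 times. Between SC and SI, equal numbers do not pair clones (same-number correlations from -0.78 to 0.27). A block on them left 2 members and 2373 genes called at d23 and 0 genes at d27.

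Leaving out 1 library at a time gave these ranges. Member calls ran from 0 to 0 at d14 and d21, 0 to 21 at d22, 0 to 23 at d23, 0 to 5 at d27, 0 to 1 for SC d23 against d21, 0 to 25 for SI d27 against d21, 0 to 4 for the change difference and 0 to 2 for SC iPS against d27. Calls over all genes ran from 0 to 222 at d21, 0 to 4147 at d22, 2 to 7978 at d23, 0 to 2796 at d27, 104 to 823 for SC d23 against d21, 0 to 1 for SC d27 against d21, 0 to 5735 for SI d27 against d21, 0 to 4156 for the change difference and 9 to 2766 for SC iPS against d27. Of members with no call, the sign turned in some of these fits: Psmb5 ran from -0.0182 to 0.171 and Psmf1 from -0.0675 to 0.0315 in SC against SI at d23. In SI d23 against d21, Psmb5 ran from -0.100 to 0.108, Psmd4 from -0.106 to 0.0593 and Psmd11 from -0.0163 to 0.102, and Psmb5 ran from -0.130 to 0.0375 in SC iPS cells against feeders.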
